A study of Mus musculus with 56 samples.

Results

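Gastrocnemius muscle of 7 female mice labelled as HuR muscle knockouts (FH) was compared with that of 7 female controls (FC). These 14 libraries, of 56 in the series, were chosen by the group letters and the number in the sample description together with the label of a locked wheel. All 14 mice were C57Bl/6 females of 5 months on a chow diet, and none had a running wheel during weeks 10 to 20 of age. The study's methods give both groups 2 floxed copies of Elavl1 (HuR fl/fl), and give the labelled littermates, called HuRm-/-, a Cre recombinase under the promoter of Myl1 (Mlc1f-Cre) in addition, which is active in fast skeletal muscle fibres. Each mouse is named by its group and the number in its description, such as FC15. The series also holds male mice with a locked wheel (MC and MH, 7 each), and the same 4 groups with a running wheel (FCE, FHE, MCE and MHE, 7 each).

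HuR, the product of Elavl1, binds AU-rich elements in RNA and is known for stabilizing the transcripts it binds. Gastrocnemius of the mouse is made largely of fast glycolytic fibres with a smaller share of slow oxidative fibres, together with nerve, vessels, connective tissue, fat and blood. Hepatocytes make and secrete albumin, apolipoproteins, clotting factors and complement proteins. Transcripts of these hepatocyte products were present in the muscle libraries, at very different levels from mouse to mouse, and are therefore described first among the cell types.

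The FC libraries held 8519862 to 14375522 counts (median 11205977) and the FH libraries 7889427 to 15963607 (median 11532954). Levels are given in CPM (counts scaled to one common library total, after TMM), and differences as log2 fold changes of FH minus FC fitted with limma, with the standard error. In all 42 pairs of mice within a group the counts differed by more than sampling noise, with a chi-square of 6.91 to 46.1 per degree of freedom. FC15 carried 34.1% of the first principal component of the 14 libraries and FH34 41.1% of the second. The labels do not say that the mice came from separate litters or days, so p-values measure the spread between samples only. For the limma values that spread was estimated from the FC, FH, MC and MH mice fitted together, males included. In whole muscle, fewer cells of a type and less RNA per cell cannot be told apart.

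The targeted transcript did not separate the groups. Elavl1 (chr8:4285382-4325413, GRCm38) ran from 38.3 to 47.6 CPM in FC (median 44.1) and from 37.6 to 61.4 CPM in FH (median 47.2). FH30 was the highest of all 14 mice and FH34 the lowest, and the 2 groups overlapped. The log2 fold change was 0.11 ± 0.095 (adjusted p = 0.665), and a two-sided exact permutation test over the mice gave p = 0.268. By qPCR, the paper reports a lower Elavl1 level in gastrocnemius of HuRm-/- mice than in controls. The counts here are reads per gene from all cells of the muscle, which is another measure. Because these counts did not show the label, the mice are called labelled HuRm-/- throughout. Every direction below is that of the label.

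Another transcript divided the labelled mice. Myl1 (chr1:66924295-66945404), the essential light chain of fast myosin and the gene whose promoter drives the Cre, ran from 8536 to 9743 CPM in FC (median 9524) and from 4720 to 13242 CPM in FH (median 5380). FH13, FH14, FH17 and FH19 had 5380, 5080.45, 4720 and 5198 CPM, whereas FH30, FH31 and FH34 had 8267, 9650 and 13242. Over all 7 mice each, Myl1 had a log2 fold change of -0.44 ± 0.26 (adjusted p = 0.480). In the series as a whole, 21 of the 28 labelled mice were below every control of their sex and wheel in Myl1.

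The division follows the numbers in the descriptions, which run from 12 to 20 for 5 FC and 4 FH mice and from 30 to 34 for 2 FC and 3 FH mice. The labels do not call these ranges batches, litters or lines. List medians within both ranges are given beside the lists where they differ most, and since the ranges were looked at after the Myl1 levels were seen, the values within a range are a description and support nothing on their own. Unless calls are named, they are differences of mean log2(CPM + 0.5). The plot of 6 quantities against the number shows the division.

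**Figure D1:**
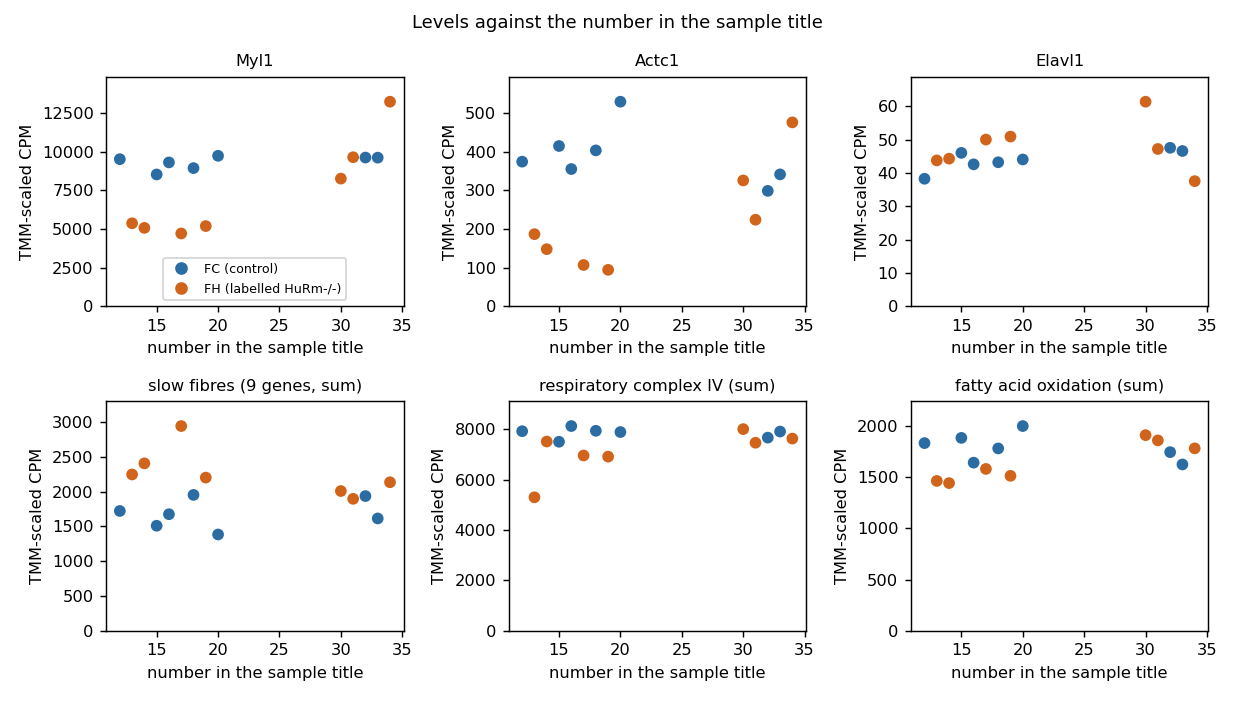
Each point is 1 mouse, with the number in its sample description on the x axis and TMM-scaled CPM, or the sum of CPM over a gene list, on the y axis, which starts at 0; blue points are FC and orange points FH. Myl1 and Actc1, cardiac actin, of FH mice lie under all FC mice for numbers 13 to 19 (4720 to 5380 CPM and 94.6 to 187 CPM), whereas for numbers 30 to 34 they run from 8267 to 13242 CPM and from 224 to 476 CPM, and Elavl1 shows no such gap.

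Across all genes the labels separated few transcripts. Of 13486 genes tested, 0 (0%) passed an adjusted p of 0.05 with limma, and the smallest adjusted p was 0.0502, shared by Psap, Galnt7, Sec14l1, Apoo, Zfp651, Hoxc9 and Fahd1. The paper does report differentially expressed genes between female genotypes at an adjusted p under 0.05. The reason for this difference was not tested. At an unadjusted p under 0.05 there were 820 genes higher in FH (6.08%) and 950 lower (7.04%), 13.1% in all. DESeq2 called 120 genes, edgeR's quasi-likelihood test 0, and the limma fit without FH30 called 83 (0.608%). The split at the unadjusted threshold moved with the scaling: 46.3% of these genes were higher with TMM, 40.7% with the size factors of DESeq2, 59.3% with upper-quartile scaling and 65.1% with library totals that leave out liver and erythroid genes. Within title numbers 12 to 20, 264 of 13998 genes were called (1.89%), 104 higher (0.743%) and 160 lower (1.14%). Within 30 to 34, 0 of 14616 were called (0%), with 1330 at an unadjusted p under 0.05 (9.10%). Because no gene was called in the comparison of all 14 mice, gene lists are described by how many members had an unadjusted p under 0.05, beside these background shares, and no member of a list is said to have changed.

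Liver transcripts were present at very uneven levels in the 14 libraries. Of 166 genes in 11 liver lists, 134 were listed in the table and 122 were tested. Their summed level ran from 266 to 6672 CPM in FC (median 434) and from 112 to 3256 CPM in FH (median 307). FC15 alone held 62.8% of the liver transcripts of its group and FH19 held 66.1% of those of its group. Next came FC12 with 1284 CPM and FC16 with 1226, and each of the remaining 10 mice was between 112 and 482 CPM. As a share of all counts this was 0.691% in FC15, 0.357% in FH19 and 0.0105% in FH34, the lowest. The plot of the 10 most abundant liver transcripts shows FC15 and FH19 at the top for each of them, followed by FC12 and FC16 for all but Adh1 and Ttr.

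**Figure D2:**
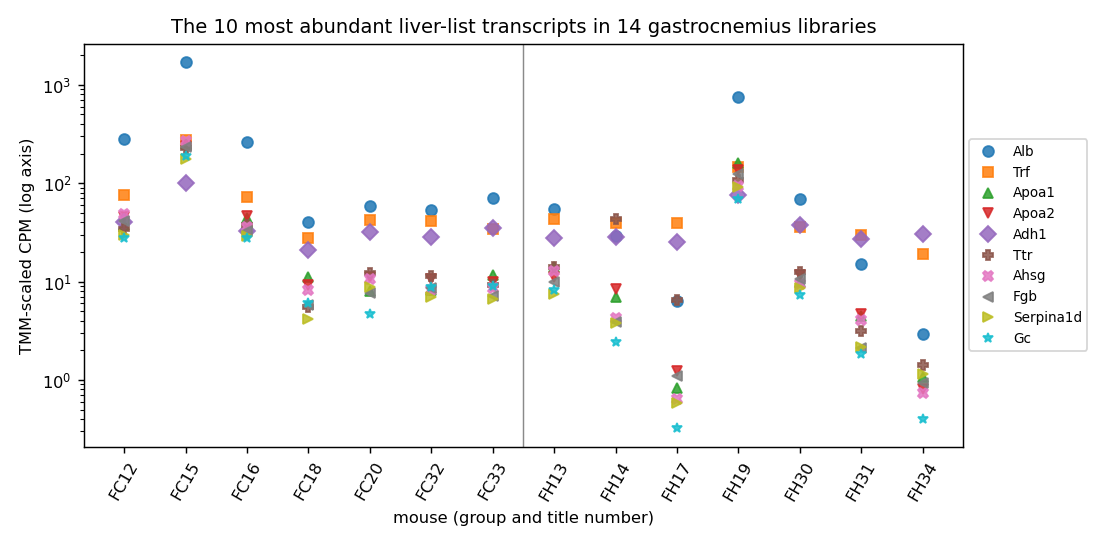
Each column is 1 mouse (FC on the left, FH on the right of the line), each symbol 1 of the 10 liver-list genes with the highest mean level, and the y axis is TMM-scaled CPM on a log scale. Alb reaches 1695 CPM in FC15 and 755 in FH19 and is 2.95 CPM in FH34, whereas Trf is at least 18.9 and Adh1 at least 20.8 CPM in every mouse.

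Albumin (Alb), the main protein of blood plasma, had 40.7 CPM in the lowest FC mouse, a median of 71.5 and 1695 in the highest. In FH it had 2.95, 29.1 and 755 CPM. The groups overlapped over most of their range, although 4 FH mice were under all FC mice. The log2 fold change was -2.35 ± 0.90 (adjusted p = 0.266), and the two-sided exact permutation test gave p = 0.101, where the smallest p the design allows is 0.000583.

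The control regions of 5 of the most abundant liver genes are shown because these genes moved together from mouse to mouse. RefSeq promoters on GRCm38.p6 were searched in the 250 bases before the start for GTTAAT, or ATTAAC on the other strand, the half-site of the hepatocyte factor HNF1. The motif was in 25 of the 96 tested liver genes with an entry (26.04%), in 508 of 10093 tested genes with an entry (5.03%), and in 7.49% of all genes with an entry. A match describes letters only. Alb, Fgb, Serpina1d and Gc held 1 match each. Ahsg held none, and neither did Apoa1, Apoa2 and Adh1, which are not printed. Trf and Ttr are not among the promoters described here. The next 5 lines give the last 100 bases before the start, 5′ to 3′ on the gene's strand, with the motif in capitals.
Alb, chr5:90460770-90460869, plus strand: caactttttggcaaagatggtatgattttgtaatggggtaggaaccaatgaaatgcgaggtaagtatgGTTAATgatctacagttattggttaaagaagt
Fgb, chr3:83049864-83049963, minus strand: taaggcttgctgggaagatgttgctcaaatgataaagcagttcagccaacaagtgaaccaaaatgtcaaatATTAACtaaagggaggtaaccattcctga
Serpina1d, chr12:103773634-103773733, minus strand: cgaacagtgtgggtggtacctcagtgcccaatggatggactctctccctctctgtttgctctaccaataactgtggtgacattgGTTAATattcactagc
Gc, chr5:89457899-89457998, minus strand: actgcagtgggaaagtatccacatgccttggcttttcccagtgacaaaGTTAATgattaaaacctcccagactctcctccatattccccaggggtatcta
Ahsg, chr16:22891915-22892014, plus strand: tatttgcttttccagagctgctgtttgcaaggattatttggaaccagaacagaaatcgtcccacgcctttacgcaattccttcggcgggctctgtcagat

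The other abundant liver transcripts followed the order of Alb. Gc, the vitamin D carrier of plasma, had 4.73, 9.03 and 187 CPM (lowest, median and highest) in FC and 0.322, 2.42 and 69.6 CPM in FH, a log2 fold change of -2.70 ± 1.0 (adjusted p = 0.246). Ahsg, the plasma protein fetuin-A, had 8.16, 10.6 and 266 CPM in FC and 0.644, 4.24 and 93.2 in FH, a log2 fold change of -2.39 ± 0.90 (adjusted p = 0.256). In both genes the FH mice FH14, FH17, FH31 and FH34 were below every FC mouse. Apoa1 and Apoa2, the apolipoproteins of high-density lipoprotein, had log2 fold changes of -2.06 and -2.12, and Fgb, the fibrinogen beta chain, of -2.07. Serpina1d, an alpha-1-antitrypsin, had -2.08, but its reads can be shared with near-identical Serpina1 copies.

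Trf, Adh1 and Ttr departed from this pattern. Trf, the iron carrier transferrin, had 27.6, 42.0 and 274 CPM in FC and 18.9, 39.0 and 145 in FH, and Adh1, an alcohol dehydrogenase, had 20.8, 32.98 and 100.2 CPM in FC and 25.05, 28.4 and 74.98 in FH. Their log2 fold changes were -0.56 ± 0.41 and -0.14 ± 0.24, and neither fell near 0 in mice with little Alb. Ttr, the thyroid hormone carrier, had 43.5 CPM in FH14, where Alb was 29.1, more than in FC12 or FC16 (34.1 and 37.4 CPM). Without FC15 the difference of Adh1 turned to 0.10.

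Every functional class of liver genes had a lower median in FH. The medians of the log2 fold change were -1.90 for 14 plasma carriers, -1.96 for 9 apolipoproteins, -2.09 for 23 serpins and clotting factors and -1.63 for 10 complement genes. They were -1.78 for 22 genes of drug metabolism, -2.37 for 7 of bile acids and transport and -1.62 for 21 of urea and amino acid metabolism. Smaller differences stood in 6 genes of sugar metabolism (-1.06), 3 acute phase genes (-0.91) and 6 major urinary proteins (-0.71), a family whose near-identical copies share reads. Of all 122 tested, 45 had an unadjusted p under 0.05 and lower values in FH (36.9%, background 7.04%), 0 had it and higher values (background 6.08%), 2 had a difference above 0, and in none did the groups fail to overlap. The median of the 122 was -1.78, against -0.01 for all genes tested. Many of these genes passed the filter through the mice with high levels, so the count and the median describe the tested members and are no support. With at least 10 counts required in every mouse the median of those left was -0.51. With the mean log2 level of the liver genes as a covariate the median was -0.03, which follows by construction.

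Among the liver genes with the smallest p were enzymes found mainly in hepatocytes. Mat1a, which makes S-adenosylmethionine, had 3.70, 5.88 and 103 CPM in FC and 0.0671, 1.21 and 48.2 in FH (log2 fold change -2.79 ± 1.0, adjusted p = 0.238). Cps1, the entry enzyme of the urea cycle, had 1.43, 2.19 and 24.1 CPM in FC and 0, 0.484 and 15.7 in FH (-3.09 ± 1.1, adjusted p = 0.239). Serpinc1, antithrombin, had 1.99, 4.21 and 46.0 CPM in FC and 0, 1.33 and 22.9 in FH (-3.06 ± 1.1, adjusted p = 0.227). In each of the 3 the groups overlapped, with 4 FH mice under all FC mice. Proc, the anticoagulant protein C, was lower than every FC mouse in 6 of 7 FH mice, the exception being FH19 with 1.41 CPM. Hamp, the iron hormone hepcidin, was highest in FH19 with 25.4 CPM, against 18.6 CPM in the highest FC mouse.

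The same few mice led nearly every liver gene. FC15 was the highest of the 14 for 112 of the 122 genes and FH19 for 9, and FC12, FC15, FC16 and FH19 were the 4 highest for 90. Over the 14 mice the correlation of log2 level with Alb had a median r of 0.896 in the other 121 genes (0.347 to 0.993), above 0.8 in 103. Within the 7 FC mice the median r was 0.964 and within the 7 FH mice 0.905. These are descriptions over libraries that share their liver content. Among the genes outside the lists with the profile most like that of Alb were Fabp1 (r = 0.989), Pzp (0.974) and Rgn (0.967), by correlation over the 14 mice.

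Other liver cells were less evident. Of 10 liver transcription factors only Hnf4a was listed in the table, at 0.965 CPM in the median FC mouse and 7.44 in FC15. The Kupffer cell markers Clec4f and Cd5l, the sinusoidal markers Clec4g, Oit3 and Dnase1l3 and the bile duct markers Krt7, Epcam and Cftr were not listed. Genes with few reads had been left out of the table, so an unlisted marker does not show that its cells were absent. The 3 listed Kupffer markers summed to 6.31 CPM in FC15, against 0.110 to 2.79 in the other mice. Stab2, a scavenger receptor of liver sinusoids that is also found in lymph node and spleen, had 0.79, 0.98 and 2.54 CPM in FC and 0.129, 0.612 and 1.01 in FH (log2 fold change -1.16 ± 0.64).

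Most sex-biased liver genes followed the sex of the group, but not all did. Relative to Alb, both male groups were above both female groups in 7 of 9 male-biased genes. Cyp4a12a, a male-biased cytochrome, had 0 counts in all 14 females, against 29 in the 7 MC mice and 233 in the 7 MH mice. Cyp2d9 had 7 counts in FC and 4 in FH, which is 0.255 and 0.417 per 1000 counts of Alb, against 25 and 27.4 in MC and MH. Mup20 and Selenbp2, both male-biased, summed to 2 and 4 counts in FC and to 1 and 2 in FH. The female-biased A1bg had 93 counts in FC, 61 of them in FC15, and 70 in FH, 52 of them in FH19, against 4 in MC and 0 in MH. FC15 and FH19, with 17999 and 7499 counts of Alb, were not without male-biased transcripts, since Ugt2b1, a glucuronosyltransferase, had 131 counts in FC15 and 55 in FH19, and Slco1a1, an organic anion transporter, 62 and 7. Per 1000 counts of Alb, Ugt2b1 was 7.31 in FC and 7.29 in FH against 20.3 in MC and 22.4 in MH. The exceptions were the male-biased Moxd1 and Gstp1, which were higher in FH (11.1 and 20.0 per 1000 counts of Alb) than in MH (4.403 and 13.8). The female-biased Cux2 was higher in males (32.8 in MC and 22.5 in MH) than in females (6.51 in FC and 18.9 in FH). These genes did not follow Alb within FC. FC15 held 17999 of the 27501 Alb counts of FC, but 25 of 284 of Gstp1, 32 of 179 of Cux2 and 22 of 86 of Moxd1. Cyp7b1, a further male-biased gene, had 4 of its 44 counts there. For these genes the ratio to Alb therefore says little about the sex of liver transcripts.

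The liver difference had the opposite sign in males with the same locked wheels. In MH minus MC the median of the 122 genes was 2.35, 119 were higher in MH and 62 had an unadjusted p under 0.05 and were higher (background 7.20% higher), 1 of them called (background 0.445%). The test of the difference between the sexes had an unadjusted p under 0.05 in 100 of the 122 genes (82.0%, background 6.87%). It called none of 13486 genes (0%), with a smallest adjusted p of 0.473. The liver genes moved together from mouse to mouse, and many passed the filter through mice with high levels. The counts in this paragraph therefore describe the tested members and are no support. In running-wheel females the median over the 65 liver genes tested was -0.86, with 3 lower and 1 higher at an unadjusted p under 0.05 (background 14.8%; 0.0443% of all genes were called there), and the test of the wheel difference passed that threshold in 1 of the 122 genes (background 10.3%). Alb medians were 71.5 and 29.1 CPM in FC and FH, 18.3 and 92.4 in MC and MH, and 13.5 and 6.26 in FCE and FHE. The plot of the liver genes in the 3 comparisons shows the 2 signs.

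**Figure D3:**
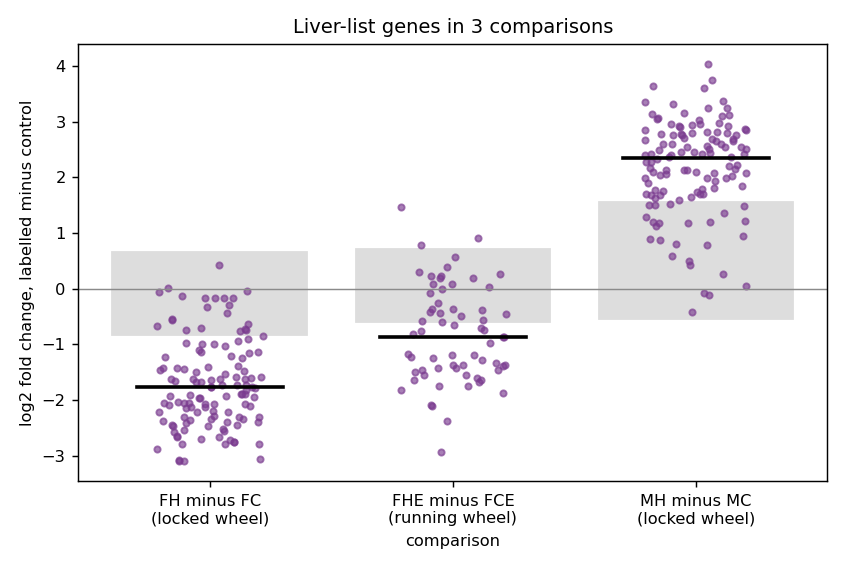
Each point is 1 liver-list gene and the y axis its fitted log2 fold change, labelled minus control mice; black bars are medians and grey boxes span the central 95% of all genes in that comparison. The medians are -1.78 in FH minus FC, -0.86 in FHE minus FCE and 2.35 in MH minus MC.

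Blood transcripts followed part of the liver order. The 7 erythroid genes summed to 1741 to 6293 CPM in FC (median 3841) and to 1360 to 4123 in FH (median 2152). FC15 was again highest, followed by FC12, FC16 and FH19. The median difference was -0.54 within title numbers 12 to 20 and -0.04 within 30 to 34. Of 6 erythroid genes tested, 3 were lower at an unadjusted p under 0.05 (background 7.04%): Hba-a2 (log2 fold change -0.68 ± 0.25, adjusted p = 0.254), Hba-a1 (-0.65 ± 0.26) and Hbb-bs (-0.54 ± 0.24), all globin chains with near-identical copies that can share reads. The log2 levels of Alb and Hbb-bs correlated over the 14 mice with r = 0.73 (permutation p = 0.00273, adjusted over 9 such relations 0.0246) and rho = 0.66 (permutation p = 0.0118, adjusted 0.106). Without the 2 mice farthest from the median of Alb r was 0.60. Within FC r was 0.81 (exact permutation p = 0.0270, adjusted 0.121), or 0.59 without the 2 farthest mice, and within FH 0.59 (exact permutation p = 0.164, adjusted 0.282), or -0.12 without them, so the relation within FH rests on those 2 mice. In the other 6 groups of 7, r ran from -0.71 to 0.77.

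Transcripts of other organs appeared in other mice. Kap, an androgen-regulated gene of kidney tubules, had 121.9 CPM in FH30, 30.7 in FC33 and 20.3 in FH31, and 0 to 8.28 in the other mice. The kidney transporter Slc12a1 was highest in FH30 as well, at 8.80 CPM. Nrgn, a neuronal protein of the forebrain, had 68.7 and 42.9 CPM in FC33 and FC32 and 34.5 and 28.4 in FH13 and FH14, against 11.4 or less in the other mice. In the 6 neuronal genes tested, 5 of them under 0, the median was -0.65, but 1.11 within title numbers 12 to 20 and -3.37 within 30 to 34. Neither pattern followed the groups, and the log2 fold changes of 0.59 ± 1.4 for Kap and -0.39 ± 0.99 for Nrgn were smaller than their standard errors. Of 12 pancreatic acinar and 6 intestinal markers 0 were listed. The part that these transcripts have in the liver difference was not tested.

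**Figure D4:**
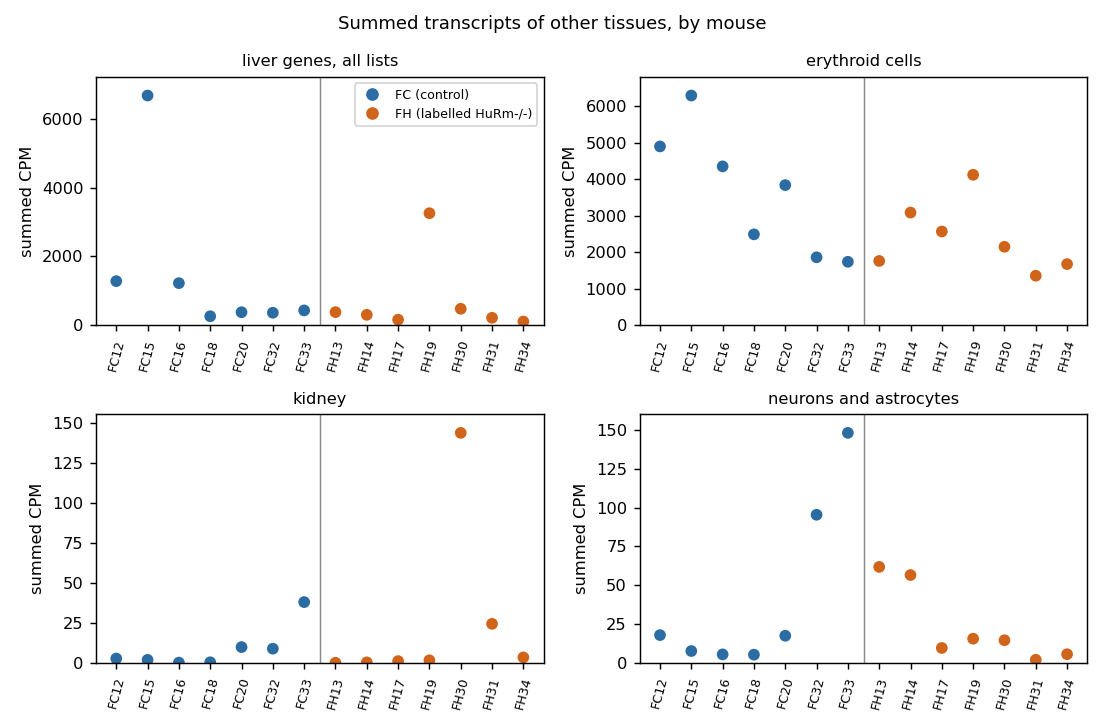
Each point is 1 mouse (blue FC, orange FH) and the y axis the summed TMM-scaled CPM of a marker list, starting at 0. FC15 leads both liver (6672 CPM) and erythroid genes (6293 CPM), FH30 leads kidney genes (144 CPM), and FC33 leads neuronal genes (148 CPM).

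Slow-fibre transcripts were higher in FH. Of 9 genes, 7 had an unadjusted p under 0.05 and were higher (background 6.08%) and 0 lower, and the median log2 fold change was 0.47. Myh7 (chr14:54970684-54994626), the slow myosin heavy chain, had 57.8, 73.2 and 92.2 CPM in FC and 92.9, 98.8 and 158 in FH. All 7 FH mice were thus above all 7 FC mice, although only just (no overlap and higher: 0.133% of all genes). The log2 fold change was 0.66 ± 0.21 (adjusted p = 0.173). Tnnc1, slow troponin C, had 112, 149 and 170 CPM in FC and 158, 228 and 322 in FH (0.62 ± 0.20, adjusted p = 0.181). Tnnt1, slow troponin T, and Myl2, the slow regulatory light chain, had 0.57 ± 0.22 and 0.54 ± 0.22. In Tnnc1 6 FH mice, and in Tnnt1 and Myl2 5 each, were above every FC mouse. The slow-fibre median was 0.69 within title numbers 12 to 20 and 0.18 within 30 to 34, it was 0.47 in MH minus MC and 0.35 in FHE minus FCE, and it stayed above 0 under every scaling tried.

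Fast-fibre genes showed no common direction. Among 13 such genes 1 was higher at an unadjusted p under 0.05 (background 6.08%). It was Mybpc2, which encodes fast myosin-binding protein C (0.26 ± 0.10, adjusted p = 0.283). The median was -0.01 (0.01 to 0.03 with upper-quartile scaling and with totals without liver and erythroid genes). Genes of excitation and contraction had 2 of 12 higher (background 6.08%). Cacng1, a subunit of the calcium channel of the transverse tubule, had 156, 174 and 199 CPM in FC and 184, 228 and 278 in FH (0.36 ± 0.091, adjusted p = 0.0941). Ryr1, the calcium release channel, had 0.32 ± 0.12 (adjusted p = 0.266). Both groups overlapped in each.

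Genes of mitochondrial respiration had medians under 0, mainly through title numbers 12 to 20. At an unadjusted p under 0.05, complex I had 9 of 37 lower and 1 higher (median -0.10), complex IV 6 of 13 lower (-0.17), ATP synthase 7 of 17 lower (-0.12) and complexes II and III 1 of 13 lower (-0.09), against a background of 7.04% lower. Ndufa8, a complex I subunit of the intermembrane space, had 169, 187 and 192 CPM in FC and 117, 156 and 168 in FH. Every FH mouse was under every FC mouse (0.141% of all genes), although only just, at 168.4 against 168.7 CPM. Its log2 fold change was -0.29 ± 0.078 (adjusted p = 0.107). Sdhc, a membrane anchor of complex II, had 188, 199 and 214 CPM in FC and 86.3, 169 and 189 in FH (-0.39 ± 0.11, adjusted p = 0.130), and Atp5j, coupling factor 6 of ATP synthase, 204, 221 and 260 in FC and 88.8, 198 and 213 in FH (-0.43 ± 0.13, adjusted p = 0.148). In Sdhc 6 FH mice and in Atp5j 4 were below all FC mice. FH13 had the lowest summed level of complexes I to IV and ATP synthase in FH, with 5294 CPM for complex IV where the next FH mouse had 6907. Without FH13 the medians were -0.05 for complex I, -0.09 for complex IV, -0.03 for complexes II and III and -0.04 for ATP synthase. With FH13 included, the medians within title numbers 12 to 20 were -0.15 for complex I, -0.16 for complexes II and III, -0.21 for complex IV and -0.16 for ATP synthase. Within 30 to 34 they were 0.02 (22 of 37 higher), 0.06 (9 of 13 higher), -0.05 and -0.02 in the same order.

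The mitochondrial genome gave the same direction. All 8 tested genes encoded there had a difference under 0, 5 of them at an unadjusted p under 0.05 (background 7.04% lower), with a median of -0.18. mt-Nd2, a complex I subunit, had 34542, 42110 and 52558 CPM in FC and 27514, 34277 and 40266 in FH (-0.33 ± 0.098, adjusted p = 0.147). The 8 genes summed to 117715 to 136703 CPM in the FH mice numbered 13 to 19, under the 145475 to 178872 of the FC mice in that range. In the range 30 to 34 they summed to 144743 to 155900 in FH and 144218 to 162012 in FC, and the median difference there was -0.02, against -0.27 in the first range.

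Enzymes of fatty acid oxidation had opposite signs in the 2 ranges. Of 16 genes of fatty acid oxidation, 4 were lower at an unadjusted p under 0.05 (background 7.04%) and the median was -0.12. Within title numbers 12 to 20 it was -0.30 with 0 of 16 higher, and within 30 to 34 it was 0.21 with 11 of 16 higher. Hadh, the short-chain hydroxyacyl-CoA dehydrogenase, had 120, 136 and 147 CPM in FC and 81.8, 106 and 148 in FH (-0.37 ± 0.099, adjusted p = 0.113), with 6 FH mice below all FC mice and FH30 above them. Acadm, the medium-chain dehydrogenase, had -0.19 ± 0.073 (adjusted p = 0.278). In the citrate cycle 2 of 13 genes were lower (background 7.04%), Suclg2 (-0.71 ± 0.18, adjusted p = 0.0941) and Dlst (-0.30 ± 0.11, adjusted p = 0.227). Suclg2 was lower in both ranges (-0.65 and -0.67), whereas Dlst was lower in the first and not in the second (-0.58 and 0.10).

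Genes that were among the 264 called within title numbers 12 to 20 included, of complex I, Ndufs7, Ndufa8 and Ndufs8, of ATP synthase, Atp5j, Atp5a1 and Atp5c1, of fatty acid oxidation, Acadm, Hadha, Hadh and Acaa2, and Dlst, all lower. Outside the lists, and chosen after their values were seen, were Ostn, the muscle hormone osteocrin, and Actc1, cardiac actin. Ostn had 54.3 to 113 CPM in the FC mice of that range and 25.9 to 35.5 in the FH mice, and Actc1 355 to 529 and 94.6 to 187. In the second range Ostn had 87.3 to 99.6 CPM in FC and 47.2 to 94.7 in FH, and Actc1 299 to 341 and 224 to 476, so that the groups overlapped there.

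Protein turnover genes were higher in part. The proteasome had 10 of 37 genes higher at an unadjusted p under 0.05 (background 6.08%) and 0 lower (background 7.04%). Its median was 0.09, and 0.07 and 0.08 within the 2 ranges. Psmd4, a ubiquitin receptor of the proteasome, had 184, 189 and 209 CPM in FC and 192, 240 and 337 in FH (0.33 ± 0.094, adjusted p = 0.132), with 6 FH mice above every FC mouse. Psmc4 and Psmc1, ATPase subunits, had 0.30 ± 0.089 and 0.29 ± 0.097. The proteasome median was -0.03 in MH minus MC and -0.06 in running-wheel females. The test of the wheel difference had an unadjusted p under 0.05 in 12 of the 37 genes (background 10.3%).

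Heat shock genes had 4 of 14 higher (background 6.08%) and a median of 0.26. Hspb7, a small heat shock protein of muscle, had 76.0, 86.3 and 142 CPM in FC and 112, 133 and 416 in FH (0.86 ± 0.26, adjusted p = 0.158), with 3 FH mice above every FC mouse. Hspa1b, an inducible chaperone whose copy Hspa1a can share its reads, had 0.90 ± 0.42, Bag3 0.24 ± 0.090 and Hspb8 0.32 ± 0.15. The summed level was highest in FH31 and FH34, and the median was 0.07 within title numbers 12 to 20 and 0.31 within 30 to 34. In MH minus MC and in FHE minus FCE the heat shock median was -0.04 each. In the cytosolic ribosome 10 of 81 genes were higher and 6 lower (background 6.08% and 7.04%). The median was -0.02, or 0.00 or 0.02 with 2 of the other scalings. Rpl14, a large-subunit protein, had 159, 183 and 190 CPM in FC and 183, 224 and 249 in FH (0.28 ± 0.066, adjusted p = 0.0804). The mitochondrial ribosome had 7 of 77 higher and 5 lower (same background shares) around a median of 0.01, which was -0.01 with the size factors of DESeq2.

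The lysosome list held the gene with the smallest p. Psap (chr10:60277627-60302597), the precursor of the saposins that help to break down sphingolipids, had 181, 213 and 239 CPM in FC and 69.3, 123 and 195 in FH. All FH mice but 1 were below every FC mouse, and the log2 fold change was -0.85 ± 0.16 (adjusted p = 0.0502). It was -0.75 in MH minus MC and -0.11 in FHE minus FCE. Ctsb, the protease cathepsin B (-0.29 ± 0.087), and Map1lc3b, an autophagosome protein (-0.31 ± 0.13), were also lower at an unadjusted p under 0.05, and Tfeb, a transcription factor of lysosomal genes, was higher (0.31 ± 0.080). Of the 19 genes 3 were lower and 1 higher at that threshold (background 7.04% and 6.08%). Their median was -0.02, and 0.01 to 0.02 with the 2 scalings named for the fast-fibre genes.

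Genes of muscle mass and stress gave single differences without a common direction. Mstn (chr1:53061640-53068079), myostatin, which restrains muscle growth, had 31.3, 38.6 and 45.3 CPM in FC and 46.6, 47.8 and 56.7 in FH, with no overlap (0.39 ± 0.13, adjusted p = 0.181). It was lower in labelled males (-0.27) and in labelled running-wheel females (-0.28). Gadd45a, a gene of growth arrest and atrophy, had 11.2, 14.9 and 16.6 CPM in FC and 6.10, 8.11 and 11.98 in FH (-0.77 ± 0.18, adjusted p = 0.0804). Of the atrophy and glucocorticoid list 1 of 16 was higher and 4 were lower (background 6.08% and 7.04%), Klf15 (-0.38 ± 0.15) and Tsc22d3 (-0.26 ± 0.11) among the latter. Of 14 genes of the unfolded protein response 1 was higher and 2 were lower (background 6.08% and 7.04%), with a median of -0.02. Atf4 was higher (0.31 ± 0.092) and Chac1, its glutathione-degrading target, lower (-1.32 ± 0.49, adjusted p = 0.246). Of 18 immediate early genes 3 were higher and 1 lower (same background shares), with 9 above 0, 9 under 0 and a median of -0.02. Atf3 (1.26 ± 0.47), Egr1 (0.58 ± 0.26) and Zfp36 (0.46 ± 0.19) were higher. Nr4a1 was lower (-0.78 ± 0.37) with 4.29 CPM in FH34, where the next FH mouse had 52.5. Of the circadian genes 1 of 18, Cry1, was higher (0.29 ± 0.10), near the background share of 6.08%.

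Part of the genes of Schwann cells and the neuromuscular junction were higher in FH. The Schwann cell list had 3 of 10 higher at an unadjusted p under 0.05 (background 6.08%). Its median was 0.46, and 0.66 within title numbers 12 to 20 and 0.14 within 30 to 34. Drp2, a protein of the myelin sheath, had 6.77, 7.72 and 9.03 CPM in FC and 7.51, 12.5 and 14.8 in FH (0.58 ± 0.22, adjusted p = 0.266), with 6 FH mice above every FC mouse and FH34 the exception. At the neuromuscular junction 2 of 11 genes were higher (background 6.08%), the acetylcholine receptor subunits Chrna1 (0.42 ± 0.18, adjusted p = 0.337) and Chrnb1 (0.41 ± 0.13, adjusted p = 0.168). Of the 11 junction genes 4 had a difference under 0, and the junction median was 0.31 within title numbers 12 to 20 and -0.16 within 30 to 34. Chrna1 was 35.3 to 51.0 CPM in the FH mice numbered 13 to 19 and 16.6 to 28.7 in those numbered 30 to 34, against 19.3 to 29.3 in FC.

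Connective tissue, vessel and immune lists showed little. Among 14 fibroblast, 10 mural and 14 macrophage genes 0 were at an unadjusted p under 0.05 in either direction (background 13.1%). Antigen presentation had 3 of 9 lower (background 7.04%) and a median of -0.20: H2-D1 (-0.40 ± 0.13), a class I molecule, and the class II chains H2-Aa (-0.49 ± 0.17) and H2-Eb1 (-0.37 ± 0.16). H2-Aa was 43.5, 55.9 and 125 CPM in FC, where FC12 was far above the rest, and 32.9, 47.6 and 52.1 in FH. The macrophage median was -0.23 in FH minus FC and 0.52 in FHE minus FCE, and the wheel difference had an unadjusted p under 0.05 in 8 of 14 macrophage, 7 of 14 fibroblast and 10 of 18 matrix genes (background 10.3%). Of matrix genes 2 of 18 were higher (background 6.08%), Thbs1 (0.77 ± 0.28) and Timp1 (1.19 ± 0.58). Single lower genes (background 7.04%) stood in the endothelial (1 of 12, Flt1, -0.17 ± 0.074) and tendon lists (1 of 8, Kera, -0.75 ± 0.29). The same held for the satellite cell (1 of 7, Sdc4, -0.46 ± 0.12, adjusted p = 0.107) and lymphocyte lists (1 of 3, Ighm, -0.59 ± 0.28). The medians within title numbers 12 to 20 and 30 to 34 were -0.18 and 0.08 for endothelial, 0.14 and -0.52 for tendon, and 0.02 and -0.38 for satellite cell genes.

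In adipocytes 1 of 10 genes was higher (background 6.08%), Pnpla3 (0.56 ± 0.20). The median was -0.03, or 0.00 to 0.01 with upper-quartile scaling and with totals without liver and erythroid genes. Car3, a carbonic anhydrase that is abundant in fat and also in slow muscle, had 3069, 3294 and 3594 CPM in FC and 2673, 3955 and 5007 in FH (0.29 ± 0.15, adjusted p = 0.400). It made up most of the list's sum, which was 4708 to 5646 CPM in the FH mice numbered 13 to 19, above the 3687 to 4147 of all FC mice, and 3132 to 4146 in the other 3. The adipocyte median was 0.23 within the first range and -0.27 within the second. Cholesterol synthesis, fatty acid synthesis and the interferon response had at most 1 gene of 12 to 18 at an unadjusted p under 0.05 (background 13.1%). Fatty acid synthesis had a median of 0.05 in the first range and -0.50 in the second. Of 13 AU-rich element binding proteins, the class to which HuR belongs, Zfp36 was higher (background 6.08%). Khsrp (-0.22 ± 0.083) and Pabpc1 (-0.17 ± 0.081) were lower (background 7.04%), and the list median was -0.05. The plot of list medians sets the lists side by side.

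**Figure D5:**
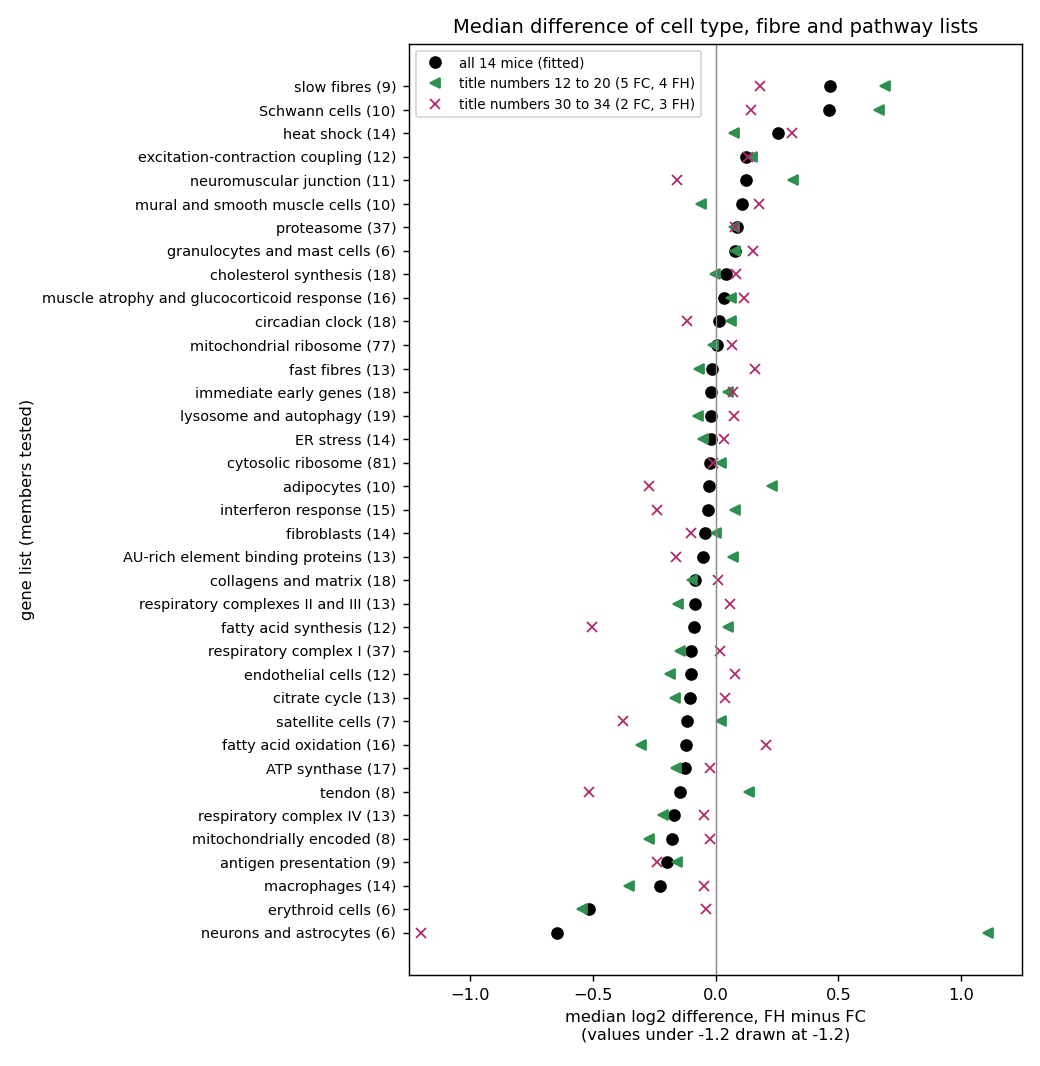
Each row is 1 of the 37 lists outside liver with at least 6 tested members (their number in brackets), and the x axis the median log2 difference of FH minus FC: black dots from the fit of all mice, green triangles and magenta crosses from mean log2 levels within title numbers 12 to 20 and 30 to 34. Slow fibres (0.47) and Schwann cells (0.46) are highest and neurons (-0.65) and erythroid cells (-0.51) lowest, and fatty acid oxidation and adipocytes have opposite signs in the 2 ranges.

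Over all genes 18 were higher in every FH than in every FC mouse (0.133%) and 19 lower (0.141%). Galnt7 (chr8:57523828-57653032), an enzyme that starts or extends mucin-type sugar chains, had 7.02, 7.69 and 10.5 CPM in FC and 10.9, 13.3 and 14.9 in FH (0.70 ± 0.13, adjusted p = 0.0502). Fahd1, a mitochondrial oxaloacetate decarboxylase, had 0.53 ± 0.11 and Xpo4, a nuclear transport receptor, 0.67 ± 0.15. Klhl40, a protein that stabilizes the thin filament of skeletal muscle, had 136, 181 and 196 CPM in FC and 209.7, 233 and 514 in FH (0.69 ± 0.19, adjusted p = 0.107). Sec14l1 (chr11:117115168-117159268), a lipid-transfer domain protein, had 30.03, 32.99 and 35.8 CPM in FC and 18.1, 23.7 and 29.3 in FH (-0.54 ± 0.10, adjusted p = 0.0502). Apoo, a subunit of the complex that shapes mitochondrial cristae, had 10.4, 10.8 and 14.6 CPM in FC and 3.76, 7.14 and 9.66 in FH (-0.82 ± 0.16, adjusted p = 0.0502). Eif4ebp2, a repressor of cap-dependent translation, had -0.73 ± 0.17 and B3galnt2, which glycosylates alpha-dystroglycan, -0.91 ± 0.23, both lowest in FH34. Galnt7, Fahd1, Sec14l1, Apoo, Eif4ebp2 and B3galnt2 kept their direction within both ranges. In MH minus MC they had log2 fold changes of 0.38, 0.36, -0.10, -0.36, -0.66 and -0.74, and in FHE minus FCE of 0.30, 0.18, -0.08, -0.19, -0.22 and -0.31.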

How the data were processed

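Gastrocnemius RNA of 56 mice was sequenced. The authors deposited 1 table of raw counts, whole reads per gene without normalization, for 15539 genes, none with a total under 168, so genes with few reads had been left out. The submitters' notes name GRCm38, R 4.0.3 and edgeR 3.38.4; the aligner and the use of strand are not given in the sources used here. The labels describe a 3′ kit with single reads and wheels, the paper stranded total RNA libraries with paired reads and no wheels, and the counts do not settle which applies.

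Groups came from the labels. The 28 locked-wheel mice (FC, FH, MC, MH) were scaled by TMM and fitted with limma (3.58.1, with edgeR 4.0.16 in R 4.3.3), as in the study's methods, with the filter filterByExpr and voom weights, which those methods do not name; genes were called at 0.05 or less after Benjamini-Hochberg adjustment over all 13486 genes. The wheel difference was fitted over all 56 mice. Alb and Elavl1 were also compared by exact permutation of log2(CPM + 0.5). Correlations used 100000 permutations over 14 mice. The scripts were tested on simulated counts. Symbols and positions are those of GENCODE M21 on GRCm38, with 15503 genes matched.

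Members and the 60 gene lists were chosen with earlier results of these data known. Genes named are Elavl1 and Myl1, up to 4 members of each list with the smallest p, the 10 genes in each direction with the smallest p and no overlap between groups, the 10 most abundant liver genes and genes that decide small counts; Psap, Hoxc9, Ostn, Actc1, the further called members within title numbers 12 to 20 and the organ markers Kap, Slc12a1 and Nrgn were added after their values were seen. Some genes under these rules are not reported here. Alternatives were DESeq2 (1.42.0) and its size factors, upper-quartile scaling, totals without liver and erythroid genes, edgeR's quasi-likelihood test, limma trend and quality weights. Further ones were other filters, other sets of mice, each mouse left out, and the mean log2 level of a marker list or the title number range as a covariate. The pair FC15 and FH19 left out and the fits within a title number range were chosen after seeing the data.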

Additional observations from a re-analysis of the deposited data

Results flagged for a closer look

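In 41 of 388 sets of 7 mice (10.6%), over 135 named genes and the summed gene lists, 1 mouse stood apart from the other 6 by more than Dixon's 95% limit, where chance flags about 1 in 20. FH19 was highest in 9 of them. Among liver genes it had 145 CPM of Trf, 74.98 of Adh1, 1.41 of Proc, 9.96 of Mbl2, 3.02 of C9 and 11.3 of Cyp2c29, and sums of 1314 CPM for plasma carriers, 37.3 for complement and 298 for drug metabolism. FC15 was highest in 4, with 100.2 CPM of Adh1, 97.3 of Fabp1, a female-biased liver sum of 8.76 and a male-biased liver sum of 23.3.

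FH13 was lowest in 7. Its sums were 7081 CPM for respiratory complex I, 3697 for complexes II and III, 5294 for complex IV, 6079 for ATP synthase, 130.2 for macrophages and 16.2 for granulocytes and mast cells, and it had 111 CPM of Rpl35. It was highest for Smtnl2 (222 CPM) and Khsrp (21.97 CPM).

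FH34 was lowest in 7, with 25.8 CPM of Eif4ebp2, 5.37 of B3galnt2, 4.29 of Nr4a1, 7.78 of Klf15, 7.51 of Drp2, 127 of Pabpc1 and a Schwann cell sum of 159.5 CPM, and highest for the fast-fibre sum (130116 CPM). FC12 was highest for H2-Aa (125 CPM) and H2-Eb1 (58.8 CPM) and lowest for Smtnl2 (115 CPM) and Gadd45a (11.2 CPM).

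The remaining 7 were FC33, lowest for Xpo4 (2.53 CPM) and highest for Timp1 (9.81 CPM), FC18, lowest for Rpl14 (159 CPM) and Bst2 (2.28 CPM), FC20, lowest for Klhl40 (136 CPM), FC16, highest for Egr1 (12.5 CPM), and FC32, highest for Ptgr2 (58.8 CPM). The cause of these single values was not tested.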

How the results depend on the processing

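No paired analysis was possible because the FC and FH mice share no number in their labels. For genes called in FH minus FC the limma value was 0 (1770 at an unadjusted p under 0.05). It became 9 with the size factors of DESeq2 and 9 with upper-quartile scaling, 120 with DESeq2 and 20 with limma trend. It was 62 with quality weights, 33 with at least 10 counts in every mouse and 55 with all 56 mice fitted. With the mean log2 level of the liver, adipocyte or erythroid genes as a covariate it was 3 (Zfp651, Ostn and Mup17, the last itself a member of the liver lists), 12 and 8. It was 45 with the title number range as a covariate, 52 without FH19 and FH30, 1 (Sec14l1) without FC15 and FH19 and 264 within title numbers 12 to 20. It stayed at 0 with totals without liver and erythroid genes, edgeR's quasi-likelihood test, no filter, only FC and FH fitted and title numbers 30 to 34. Leaving out 1 mouse gave 0 to 83: 83 without FH30, 26 without FH31 or without FH34, 10 without FC15 and 1 without FH19. Genes with an unadjusted p under 0.05 numbered 1330 to 2122 over all alternatives.

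The sex difference called 1 gene (Ostn) within title numbers 12 to 20 and 0 otherwise. The wheel difference called 2 with DESeq2 (Rpl14, 5430431A17Rik), 2 without FH19 and FH30, 3 without FC15 and FH19, 1 (Asb12) within title numbers 30 to 34, and 0 to 2 with 1 mouse left out (2 without FC15). The liver median was -0.0323 with the mean log2 level of the liver genes as a covariate, which removes it by construction. With 1 mouse left out the liver median was -2.37 (without FH19) to -1.24 (without FC15). Elavl1 and Alb kept their direction and stayed above the threshold in every alternative, at 0.00764 to 0.17 and -3.54 to -0.60. The cause of the other changes was not tested.

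Directions turned as follows. With the liver covariate the log2 fold changes were 0.0823 for Trf, 0.22 for Adh1, 0.13 for Ttr, 0.15 for Apoc3, 0.0639 for Mbl2, 0.67 for Hamp and 0.13 for Hnf4a. All of these genes are members of the lists behind that covariate, so values scattered around 0 follow by construction. With the erythroid covariate the log2 fold changes were 0.0877 for Trf, 0.22 for Adh1, 0.55 for Ttr and 0.0309 for Hbb-bt, itself a member of the erythroid list. Kap had -0.00326 with limma trend, -0.46 without FH19 and FH30, -0.90 within title numbers 12 to 20, -0.01 without FC16, -0.50 without FC18 and -0.47 without FH30. Nrgn and Syt1 had 1.39 and 1.27 within title numbers 12 to 20, and with 1 mouse left out Nrgn had -0.84 to 0.0129 (without FC33), Adh1 -0.32 to 0.10 (without FC15) and Kap up to 1.53 (without FH13). Within title numbers 30 to 34 Myl1 had 0.0773, Car3 -0.0273, Dlst 0.0910, Acadm 0.0198, Chrna1 -0.18, Map1lc3b 0.0121, Ighm 0.14, Actc1 0.0344, Ndufs8 0.22, Hadha 0.28, Acaa2 0.27 and Prkab2 0.0309. Of the values of single genes, 248 passed the adjusted threshold under an alternative and not with all mice and TMM.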
